A study of Mus musculus with 8 samples.

Results

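T cell receptor variable (V) segments are the gene pieces that encode the antigen-binding front of the alpha and beta receptor chains. They were taken as all rows of the deposited normalized table whose symbol begins with Trav or Trbv followed by a digit, which gave 99 of its 16418 genes. Of these, 73 were Trav segments of the alpha locus on chromosome 14 (positions 52427928 to 53876752, mm10) and 26 were Trbv segments of the beta locus on chromosome 6 (40891229 to 41558452). By annotated type the Trav members were 66 V genes and 7 V pseudogenes, and the Trbv members 22 V genes and 4 V pseudogenes. Poly(A) RNA had been sequenced from naive CD4 T cells (CD3+CD4+CD25-, CD44 low or absent) of spleen and lymph node, from mice with the genotype Satb1fl/fl x CD4-CreERT2wt/+. This genotype pairs loxP-flanked Satb1 alleles with a Cre recombinase that tamoxifen activates and CD4 sequences drive. Libraries are named by group and sample number, so that Sample_2907_KO is KO_2907. The 4 KO libraries (KO_2907, KO_2908, KO_2909 and KO_2910) came from tamoxifen-treated mice and the 4 WT libraries (WT_2911, WT_2913, WT_2914 and WT_2915) from untreated mice that carry the same floxed alleles and the same Cre. As only the KO mice received tamoxifen, the drug and the deletion cannot be told apart, and no age was given. The labels do not state that each sample was a separate animal, so p-values measure only the spread between these samples, which may be technical.

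In the thymus, the RAG recombinase joins a V segment to a joining segment (alpha chain), or to a diversity and a joining segment (beta chain), and the joined exon is spliced to a constant gene, Trac or Trbc1/Trbc2. Each V segment contributes the first and second antigen-contacting loops (complementarity-determining regions) and the start of the third, so the mix of V segments in a T cell population describes its repertoire. A beta locus stops rearranging once it has made a working chain, whereas an alpha locus can rearrange again, replacing one V segment with another farther upstream. The mouse Trav locus holds stretches that were copied within it, and a "d" or "n" in a segment's name marks such a copy.

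KO libraries held 7.54 to 9.25 M counted reads (8.56 ± 0.82, SD, n = 4) and WT libraries 5.23 to 22.00 M (11.08 ± 7.83, SD, n = 4). Satb1, the chromatin organiser targeted in these mice, had 855.1, 1032, 839.6 and 913.2 CPM (counts scaled to library size with edgeR's TMM factors) in the KO libraries and 987.2, 1015, 1046 and 1083 CPM in the WT libraries, and did not pass the test (log2 fold change -0.18, edgeR adjusted p = 0.0582). KO therefore names the group and not a measured loss of Satb1 RNA. Cd4, the marker that names these cells, averaged 583.0 ± 33.2 CPM in the KO and 667.6 ± 28.9 CPM in the WT libraries, and Cd3e, a chain of the receptor complex, 390.3 ± 25.1 CPM in the KO and 377.0 ± 7.69 CPM in the WT libraries (SD, n = 4 each). Among the other markers of CD4 T cells Ccr7, a homing receptor, fell (log2 fold change -0.19, edgeR adjusted p = 0.0221). Cd8a, which defines CD8 T cells, averaged 0.288 ± 0.105 CPM in the KO and 0.259 ± 0.287 CPM in the WT libraries (SD, n = 4 each). Summed with Cd8b1, the other listed CD8 T cell marker, the level was higher, at 9.65 to 14.7 CPM in KO and 13.2 to 18.2 CPM in WT.

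V segments took up a small part of each library. Trav reads numbered 1052, 1237, 1632 and 1280 in the KO libraries and 501, 807, 2924 and 1961 in the WT libraries. Trbv reads numbered 3940, 5011, 5014 and 3876 in KO and 2813, 3294, 14158 and 6706 in WT. The share that a count of 0 allows (3 reads) is 0.599% of Trav reads in WT_2911, the shallowest library, and 0.103% in WT_2914, the deepest. These floors and all intervals cover counting error only.

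Many near-identical Trav copies had no reads. The full count table lists 128 Trav rows and 35 Trbv rows. Of the Trav rows, 47 had no read in any library, 8 had between them 28 reads but were not in the normalized table, and 73 were members. Of the 47 rows without reads, 40 had no stretch of 75 bases, the read length, that was absent from every other annotated transcript, against 0 of the 73 members. The median share of such unique 75-base windows was 0.0% in the rows without reads and 76.3% in the members. Trav11 and Trav11d, the segment of the invariant NKT cell receptor and its copy, had 0 and 2 reads and 0.0% unique windows each. All 9 unread Trbv rows were pseudogenes, and 24 of the 26 Trbv members were unique over their whole length. How the counter treated reads that match several copies is not given in the sources used here.

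**Figure D1:**
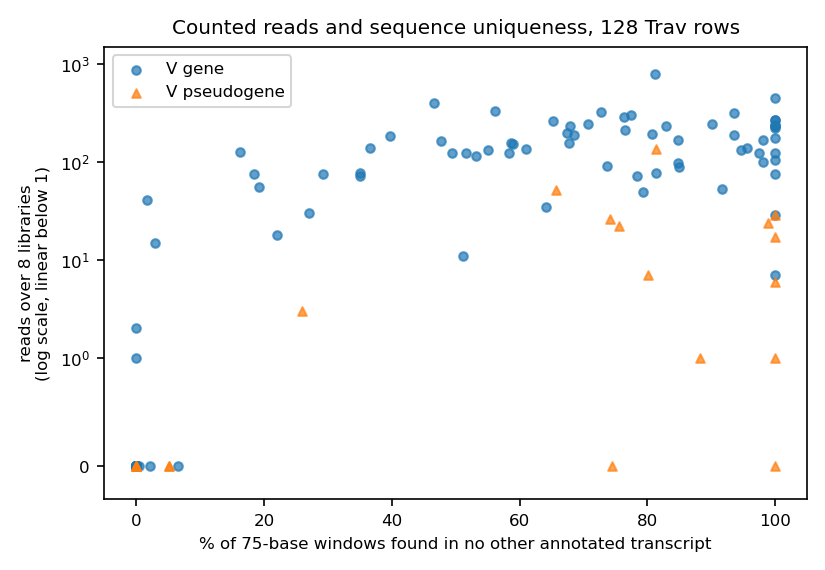
Reads summed over the 8 libraries (log axis, linear below 1) against the percentage of 75-base windows found in no other annotated transcript, for the 128 Trav rows, with V genes as circles and V pseudogenes as triangles. Rows near 0% unique windows lie mostly at 0 reads, and 40 of the 47 unread rows have no unique window.

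The Trav14 segments were the most used alpha family, and 5 copies of it were members. The 75 bases of each copy that end at a shared gcagca are shown because they fill 1 read and show how few bases tell a read of one copy from a read of another. Capitals mark the 6 positions at which any of the 5 copies differ, and any pair differs at 2 to 4 of them. Sequences are from the GENCODE M21 transcripts (GRCm38, plus strand), at chr14:53078967-53079041, chr14:53370497-53370571, chr14:53554480-53554554, chr14:53641147-53641221 and chr14:53763616-53763690 in the order printed.
Trav14d-3-dv8: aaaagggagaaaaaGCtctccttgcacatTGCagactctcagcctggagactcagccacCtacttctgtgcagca
Trav14n-3: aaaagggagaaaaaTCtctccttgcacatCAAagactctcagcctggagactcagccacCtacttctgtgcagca
Trav14-1: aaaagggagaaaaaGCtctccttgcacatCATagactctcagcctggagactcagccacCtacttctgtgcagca
Trav14-2: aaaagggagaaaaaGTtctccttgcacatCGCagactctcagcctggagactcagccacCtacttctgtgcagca
Trav14-3: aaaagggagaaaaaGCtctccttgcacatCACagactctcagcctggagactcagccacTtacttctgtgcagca

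One WT library stood apart in the alpha locus. In WT_2911, 31 neighbouring Trav members, Trav8n-2 to Trav7-6 (chr14:53345890-53717291, 371.4 kb), had 1 read between them, from Trav12-2, and 30 of the 31 had none. All 31 are annotated V genes. In the other 7 libraries the same members had 0 reads only once (Trav6-3 in WT_2913). Members with reads bounded the run on both sides. The nearest member before it, Trav9n-4 (ending at 53295030), had 6 reads in WT_2911 and the nearest after it, Trav8-2 (starting at 53738375), had 10. Trav9n-4 had 16.3% unique windows, and the annotated rows between it and the run, Trav4n-4 to Trav13n-3, had 0 reads in every library. The edge on that side is therefore not placed more closely. Of the 42 members outside the run, 3 (Trav4d-2, Trav9d-4 and Trav20) had 0 reads in WT_2911. The run was defined from the values of WT_2911, so its level there is a description without a test. Members inside and outside it had similar sequence uniqueness, with medians of 77.4% and 74.8% unique windows.

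**Figure D2:**
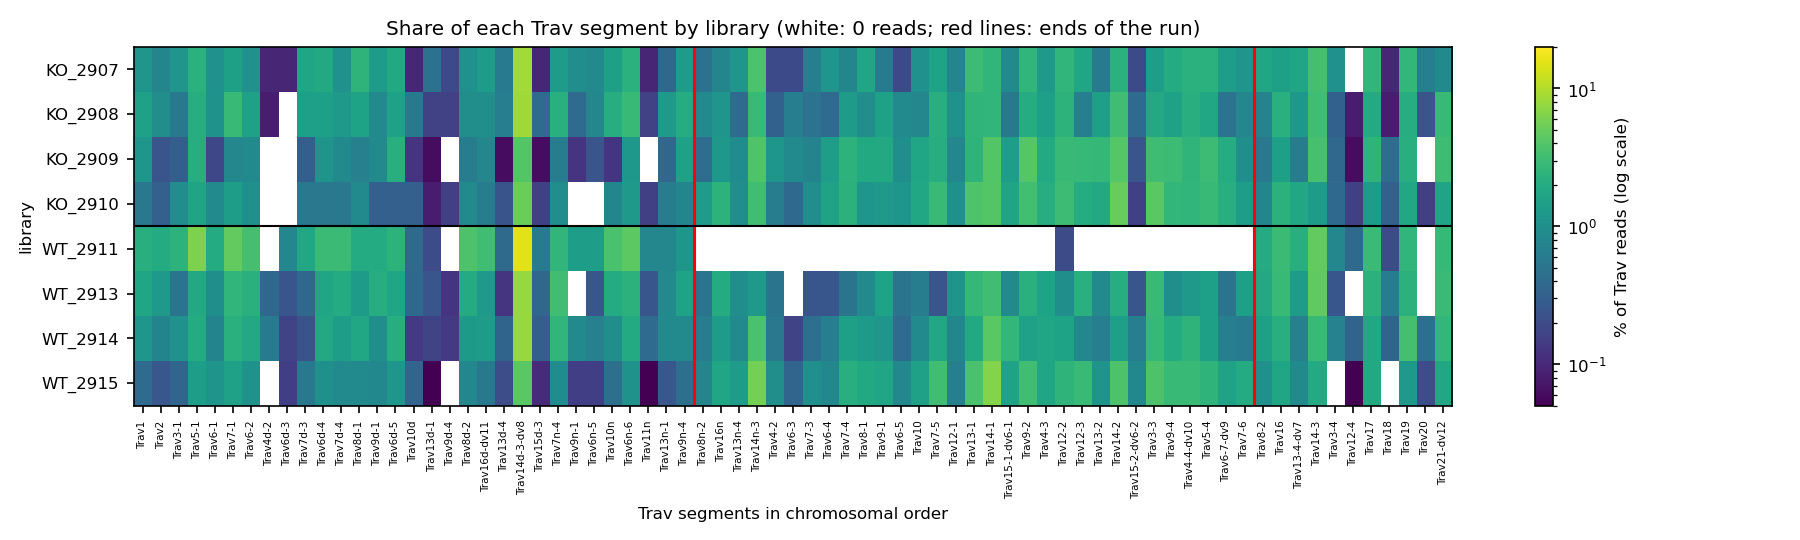
Share of Trav reads (%, log colour scale, white for 0 reads) of each of the 73 Trav members, in chromosomal order from left to right, in the 4 KO libraries (upper rows) and the 4 WT libraries (lower rows). The 31 members between the red lines are white in WT_2911 except for Trav12-2, which has 1 read, and are filled in the other libraries apart from Trav6-3 in WT_2913.

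The members of the run supplied 43.1, 41.8, 63.7 and 66.0% of Trav reads in the KO libraries and 0.20, 36.8, 43.3 and 67.8% in the WT libraries. The Wilson 95% interval in WT_2911 was 0.04 to 1.12%. Measured against the constant gene, they stood at 69.6, 67.9, 130.5 and 130.5 reads per 1000 Trac reads in KO and at 0.233, 64.4, 66.4 and 139.7 in WT. Both groups thus held libraries between 64.4 and 69.6 and libraries between 130.5 and 139.7, no library lay between these ranges, and WT_2911 alone lay below them. The order of the libraries did not follow the groups.

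The stretches on either side did not show the same pattern. The 31 members before the run stood at 65.8, 70.3, 44.2 and 43.4 reads per 1000 Trac reads in KO and at 91.1, 76.9, 61.1 and 44.4 in WT, with WT_2911 the highest of the 8 libraries. The 3 libraries with the most reads per 1000 Trac reads inside the run, KO_2909, KO_2910 and WT_2915, were the lowest here. The 11 members after the run stood at 26.3, 24.3, 30.1 and 23.8 in KO and at 25.4, 33.6, 25.8 and 22.1 in WT, a narrow range in which WT_2911 lay in the middle. Trac itself was at 839.3 ± 33.2 CPM in the KO and 833.4 ± 11.8 CPM in the WT libraries (SD, n = 4 each), including 828.5 CPM in WT_2911. The cause of the run's levels was not tested.

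**Figure D3:**
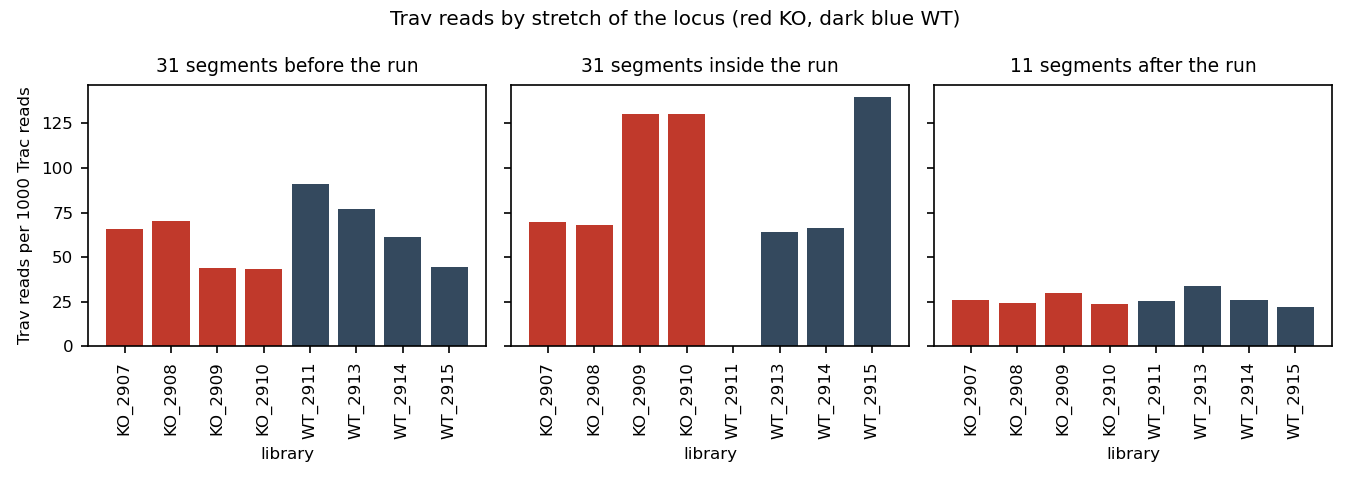
Trav reads per 1000 reads of the constant gene Trac, in the 31 members before the run, the 31 inside it and the 11 after it, 1 bar per library with KO in red on the left and WT in dark blue on the right. Inside the run the bars stand at 64.4 to 69.6 or at 130.5 to 139.7 in both groups, and at 0.233 in WT_2911.

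Within the Trav14 family the share of single copies varied between libraries while their summed share of Trav reads varied little. The 5 copies together made up 20.6, 20.2, 19.5 and 18.8% of Trav reads in KO and 20.2, 19.1, 20.1 and 22.2% in WT. The family mean was 19.8 ± 0.82% in KO and 20.4 ± 1.30% in WT (SD, n = 4 each), and an exact 2-sided permutation test over samples gave p = 0.543. In WT_2911 all of the family's reads came from the 2 copies outside the run, with 77 reads of Trav14d-3-dv8 and 24 of Trav14-3, while Trav14n-3, Trav14-1 and Trav14-2 had 0. The Trav total was itself lowest in WT_2911, at 96.7 CPM against 128.5 to 176.4 CPM in the other libraries. A steady family share there does not mean a steady family level.

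Trav14d-3-dv8, whose name marks a segment that can also join the delta locus, was the most used alpha segment, with a mean share of 7.74%. It took 8.65, 8.49, 4.04 and 5.16% of Trav reads in KO and 15.4, 7.93, 7.97 and 4.28% in WT. Its highest value was in WT_2911, whose Trav total lacks nearly all reads of the run, and the groups overlapped. As a share of members outside the run it took 15.2, 14.6, 11.1 and 15.2% in KO and 15.4, 12.5, 14.1 and 13.3% in WT. Trav14-1, the second, took 2.57, 2.59, 4.04 and 4.06% in KO and 0.00, 3.22, 4.28 and 6.53% in WT. The remaining copies averaged 3.19% (Trav14-3), 3.01% (Trav14n-3) and 2.74% (Trav14-2), and none of the 5 separated KO from WT.

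Alpha usage was spread thinly. Of the 73 Trav members, 46 had a mean share of at least 1%, together 87.47% of Trav reads. The 5 most used segments made up 20.08% and the 10 most used 32.24%. After the Trav14 copies came Trav3-3 (2.51%), Trav13-1 (2.50%), Trav5-1 (2.45%), Trav9-2 (2.37%) and Trav21-dv12 (2.33%). Between libraries of one group the shares varied more than counting error alone gives. Over the segments with a mean share of at least 1%, the median ratio of the observed SD to the counting SD was 1.66 in KO and 2.35 in WT. The WT value includes WT_2911, whose Trav total lacks nearly all reads of the run.

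With 1 exception of few reads, KO and WT shares overlapped in every Trav member. In 1 of the 73 Trav members, Trav6d-3 with 15 reads in all and 3.0% unique windows, every KO share lay below every WT share. Over all 11772 tested genes, counted per Trav read in the same way, 3.08% had no overlap, 0.697% higher and 2.38% lower in KO. This background carries the variation of the Trav total between libraries. Shares of the members do not, so it cannot judge their count. Among the 46 segments with a mean share of at least 1% the number without overlap was 0. The largest ratios of KO to WT mean share were in Trav13-2 (log2 ratio 1.32, exact permutation p = 0.114), Trav8d-2 (-1.18, p = 0.114), Trav6-7-dv9 (1.17, p = 0.20) and Trav12-2 (1.05, p = 0.0571). The smallest p that 4 against 4 samples allow is 0.0286, and these are unadjusted. Trav8d-2 lies outside the run and the other segments inside it.

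Trav12-2 had the lowest of these p-values. It took 2.57, 2.43, 2.82 and 3.05% of Trav reads in KO and 0.20, 0.99, 1.61 and 2.45% in WT. Only WT_2915 reached the KO range. Without WT_2911 the log2 ratio of Trav12-2 was 0.69. Without that library the log2 ratio of Trav13-2 was 0.91, that of Trav8d-2 -0.65 and that of Trav6-7-dv9 0.75, and the ratio changed sign for Trav14n-3 (0.38 with all libraries, -0.04 without), Trav3-3 (0.20 and -0.22) and Trav5-1 (-0.50 and 0.21).

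Shares were also taken within each stretch of the locus, a choice made after seeing the data. Of the 42 members outside the run, 3 did not overlap between the groups, beside 2.63% of all tested genes counted per read of these members. Of the 31 inside it, with WT_2911 left out, 3 did not overlap, beside 0.815% of all tested genes, in a comparison of 4 KO with 3 WT libraries. The summed reads of either stretch varied between libraries, and every gene counted per such read carries that variation. Shares of the members themselves do not, so these backgrounds cannot judge the members' counts. Inside the run, Trav14-1 took 5.96, 6.19, 6.35 and 6.15% of the run's reads in KO and 8.75, 9.87 and 9.63% in WT. Trav12-2 took 5.96, 5.80, 4.42 and 4.62% in KO and 2.69, 3.71 and 3.61% in WT. Trav14-1 was thus lower in each KO library and Trav12-2 higher, as was Trav5-4, at 4.66 ± 0.501% in KO (SD, n = 4) and 3.71 ± 0.295% in WT (SD, n = 3). Outside the run, Trav6-2, Trav7d-4 and Trav6d-3 were lower in each KO library, with Trav6-2 at 2.46 ± 0.486% in KO and 3.38 ± 0.117% in WT (SD, n = 4 each). These values are a description without a test.

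In levels, 51 Trav members had enough reads for the edgeR quasi-likelihood test, and 0 passed (Benjamini-Hochberg adjusted p under 0.05 over all tested genes). The background was 6.39% of the 11772 tested genes, 3.98% higher and 2.41% lower in KO. Unadjusted p was under 0.05 for 3 of the 51, Trav6-4, Trav12-2 and Trav13-2, all members of the run, and for 18% of all tested genes. DESeq2 also called 0 Trav members. Of the 26 tested members inside the run 23 had a positive log2 fold change, with a median of 0.47, and of the 25 outside it 19 had a negative one, with a median of -0.15. Over all genes tested the median was -0.0005. The run was defined by its lack of reads in WT_2911, a WT library, which by itself raises the fold changes inside it. The counts, median and low p-values inside the run are therefore a description and no evidence of a group difference. Without WT_2911 the medians were 0.18 inside and -0.07 outside, and 0 Trav members were called. Without WT_2915, however, Trav12-2 passed (log2 fold change 1.48, edgeR adjusted p = 0.0233).

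Together the Trav members stood at 153.0 ± 24.4 CPM in the KO and 135.6 ± 30.6 CPM in the WT libraries (SD, n = 4 each; log2 ratio 0.17, exact permutation p = 0.486). Without WT_2911 the log2 ratio was 0.04 (exact permutation p = 0.83). Members outside the run summed to 68.6 ± 9.24 CPM in the KO and 79.3 ± 19.1 CPM in the WT libraries, a log2 ratio of the other sign (-0.21, exact permutation p = 0.371). In bulk RNA, fewer cells using a segment and less RNA per cell cannot be told apart.

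The effective number of Trav segments, the exponential of the Shannon entropy of their shares, counts how many equally used segments would be as diverse. It was 53.2, 53.7, 49.0 and 50.3 in KO and 28.1, 50.8, 54.5 and 48.6 in WT. WT_2911 was the single low value, and the other 7 libraries overlapped between the groups. The difference of the means was 6.04 (exact permutation p = 0.514) with all libraries and 0.24 without WT_2911 (exact permutation p = 0.943). Over members outside the run it was -1.21 (exact permutation p = 0.486).

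Beta usage was concentrated on fewer segments and was more alike between libraries. Of the 26 Trbv members, 17 had a mean share of at least 1%, together 97.66% of Trbv reads, with 47.35% in the top 5 and 78.68% in the top 10. The most used were Trbv13-2 (11.6%), Trbv3 (10.1%), Trbv1 (9.54%), Trbv2 (8.63%) and Trbv31 (7.52%), the last of which lies downstream of the constant genes in inverted orientation. Trbv16 (6.92%), Trbv13-1 (6.65%), Trbv13-3 (6.27%), Trbv19 (5.93%) and Trbv15 (5.57%) followed. Over the segments with a mean share of at least 1%, the median ratio of observed to counting SD was 1.42 in KO and 1.55 in WT.

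The results on the beta locus turn on Trbv1 and Trbv16, and their coding ends are set beside those of the 2 most used segments. Capitals mark the codon of the conserved cysteine, a C at the start of the third antigen-contacting loop, and the letters after it are what the germline segment offers to that loop. Sequences are from the GENCODE M21 transcripts (GRCm38, plus strand) at chr6:40891826-40891885, chr6:41152171-41152230, chr6:41121773-41121832 and chr6:41048769-41048828 in the order printed.
Trbv1: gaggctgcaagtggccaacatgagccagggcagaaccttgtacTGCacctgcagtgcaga
Trbv16: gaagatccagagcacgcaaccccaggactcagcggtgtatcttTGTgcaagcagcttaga
Trbv13-2: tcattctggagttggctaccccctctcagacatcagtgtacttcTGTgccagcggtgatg
Trbv3: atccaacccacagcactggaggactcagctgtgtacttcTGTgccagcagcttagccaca

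Trbv1, the first segment of the locus (Tcrb-V2 in the older naming; ENSMUSG00000076461.2, chr6:40891229-40891885), took a larger share of beta reads in KO. Its share was 11.3, 11.4, 10.4 and 9.88% of Trbv reads in KO and 7.50, 8.86, 8.19 and 8.80% in WT. Every KO library lay above every WT library. The means were 10.7 ± 0.748% in KO and 8.34 ± 0.636% in WT (SD, n = 4 each), a log2 ratio of 0.37, with exact 2-sided permutation p = 0.0286, unadjusted and the smallest the design allows. With the whole table scaled to Trbv reads, the log2 fold change of Trbv1 was 0.36 (edgeR adjusted p = 0.00933), and 15.4% of all genes passed in that fit. In CPM it averaged 56.1 ± 4.81 in KO and 49.0 ± 5.57 in WT and did not pass (log2 fold change 0.19, SE 0.087, edgeR adjusted p = 0.245), so its share and its level gave different calls.

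Trbv1 was the single segment with a mean share of at least 1% whose groups did not overlap, and the other 16 such segments had KO to WT log2 ratios within 0.2. Over all 26 members 2 did not overlap, the other being Trbv21 with 35 reads in all, lower in KO. Counted per Trbv read, 15.8% of all tested genes did not overlap, 14.8% higher and 1.03% lower in KO. The summed Trbv level averaged lower in KO (log2 ratio -0.17, exact permutation p = 0.0571), which raises the KO value of any gene counted per Trbv read. The members' shares add up to the whole locus and cannot all shift together, so this background cannot judge their count. The most used segment, Trbv13-2, took 10.8, 12.1, 10.8 and 13.2% in KO and 12.3, 11.9, 11.0 and 10.6% in WT (log2 ratio 0.04, exact permutation p = 0.714). Trbv3 took 9.14, 10.4, 11.1 and 7.79% in KO and 10.1, 11.4, 11.3 and 9.36% in WT (log2 ratio -0.13, exact permutation p = 0.314). Both overlapped between the groups, Trbv3 only in part. After Trbv1 the largest ratios were in Trbv12-1 (0.18), Trbv29 (0.15), Trbv26 (-0.15) and Trbv3.

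**Figure D4:**
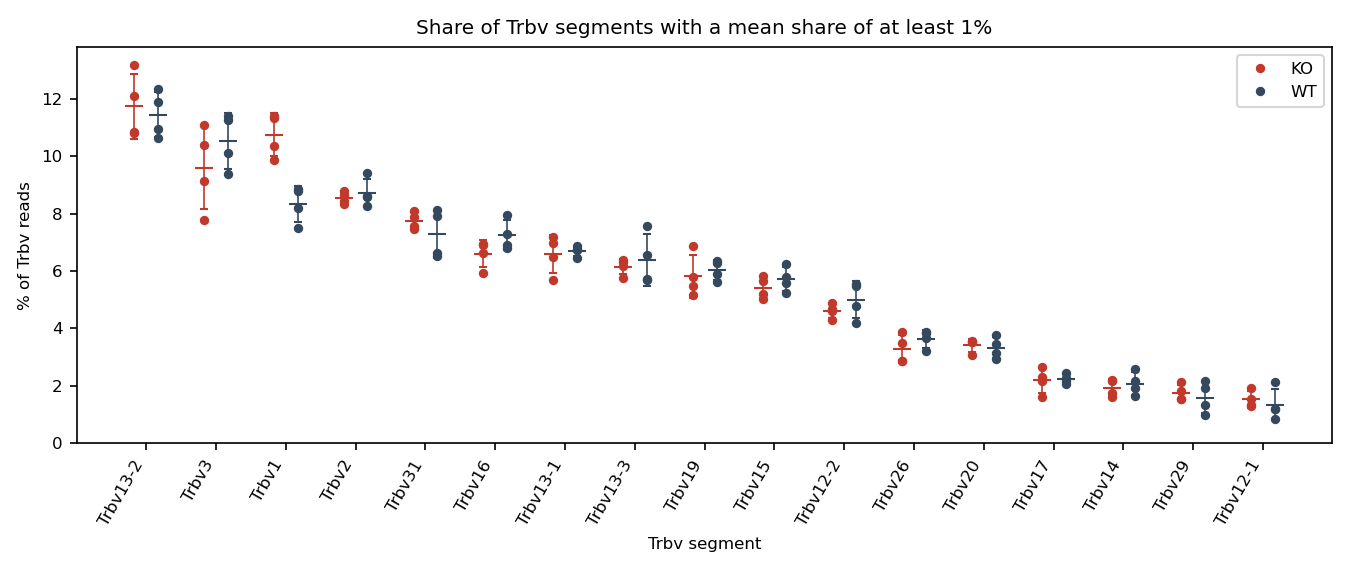
Share of Trbv reads (%) of the 17 Trbv segments with a mean share of at least 1%, ordered by mean share, with 1 point per library, the mean as a bar and the SD as whiskers (n = 4), KO in red to the left of WT in dark blue. Trbv1 is the single segment whose KO points (9.88 to 11.4%) all lie above the WT points (7.50 to 8.86%).

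Trbv16 (Tcrb-V11 in the older naming; ENSMUSG00000076473.3, chr6:41151740-41152230) was the single V segment whose level changed in the edgeR fit. It stood at 31.9, 37.9, 32.1 and 36.0 CPM in the KO libraries and at 43.2, 43.3, 43.6 and 39.5 CPM in WT. All KO libraries lay below all WT libraries. The means were 34.5 ± 2.99 CPM in the KO and 42.4 ± 1.96 CPM in the WT libraries (SD, n = 4 each), a fall of 0.30 on the log2 scale (log2 fold change -0.30, SE 0.091, edgeR adjusted p = 0.0450). It was the 1 call among 22 tested Trbv members and 73 tested V segments, against a background of 6.39% of all genes called and 2.41% called lower. As a share of Trbv reads it did not separate the groups, at 6.62, 6.90, 5.92 and 6.94% in KO and 7.96, 7.29, 6.91 and 6.80% in WT (log2 ratio -0.13, exact permutation p = 0.143). The call was lost with DESeq2 (adjusted p = 0.0630), and when KO_2907, KO_2909, KO_2910, WT_2911, WT_2913 or WT_2914 was left out (edgeR adjusted p between 0.0624 and 0.153).

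The other beta segments tested did not pass in level. Of the 22 tested Trbv members 19 had a negative log2 fold change, with a median of -0.20, beside -0.0005 over all genes tested. Unadjusted p was under 0.05 for 10 of the 22, of which 9 were lower in KO and the other was Trbv1. Among all tested genes it was under 0.05 for 18%, and 8.24% were among these and lower in KO. Trbv12-2 (log2 fold change -0.33, edgeR adjusted p = 0.0839), Trbv5 (-1.22, adjusted p = 0.0864) and Trbv26 (-0.35, adjusted p = 0.111) came next to Trbv16. In CPM 1 of the 22 did not overlap between the groups, where 11.1% of all tested genes did not, 6.23% higher and 4.86% lower in KO. Trbv12-2 and Trbv26 passed when WT_2911 was left out, and Trbv16 then did not.

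Summed over the 26 Trbv members, the level was 481.2, 549.4, 541.8 and 519.1 CPM in the KO libraries and 542.9, 593.7, 631.0 and 580.5 CPM in the WT libraries. WT_2911 alone reached the KO range. The means were 522.9 ± 30.6 CPM in the KO and 587.0 ± 36.4 CPM in the WT libraries (SD, n = 4 each; log2 ratio -0.17, exact permutation p = 0.0571). Without WT_2911 the log2 ratio was -0.20 (exact permutation p = 0.0286, the smallest that 4 against 3 samples allow). Measured against the beta constant genes the means differed by less than their SD, with 562.1 ± 9.18 Trbv reads per 1000 Trbc1 and Trbc2 reads in KO and 559.6 ± 20.6 in WT (log2 ratio 0.01, exact permutation p = 0.857). The effective number of Trbv segments was 15.9 ± 0.296 in KO and 16.0 ± 0.301 in WT (SD, n = 4 each; exact permutation p = 0.457).

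The constant genes carry the same chains. Trbc2, the second beta constant gene, fell to 553.6, 586.5, 589.9 and 583.3 CPM in the KO libraries, against 650.2, 643.4, 703.1 and 644.5 CPM in WT, without overlap (log2 fold change -0.19, edgeR adjusted p = 0.0197). Trbc1, the first, was at 351.3 ± 24.4 CPM in the KO and 388.4 ± 16.2 CPM in the WT libraries (SD, n = 4 each; log2 fold change -0.15, edgeR adjusted p = 0.139). For Trac, the alpha constant gene, the log2 fold change was 0.01 (edgeR adjusted p = 0.953). The proportion of beta constant reads that came from Trbc1 was 37.8 ± 1.10% in KO and 37.0 ± 0.831% in WT (SD, n = 4 each; exact permutation p = 0.343).

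**Figure D5:**
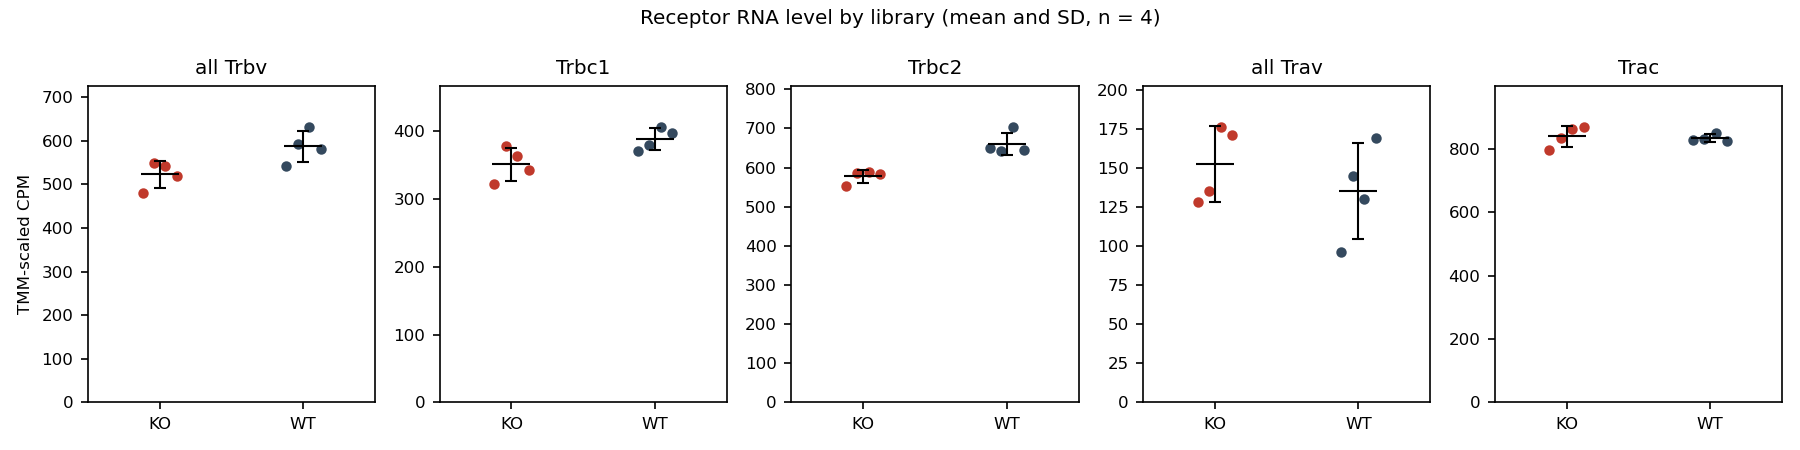
Level in TMM-scaled CPM, 1 point per library with the mean as a bar and the SD as whiskers (n = 4), KO in red to the left of WT in dark blue, of all Trbv members, Trbc1, Trbc2, all Trav members and Trac. Trbc2 is the panel without overlap (553.6 to 589.9 in KO, 643.4 to 703.1 in WT), and Trac lies at 794.3 to 867.3 in KO and 823.2 to 850.3 in WT.

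Usage profiles as a whole differed by overlapping amounts between the groups and within them. As the distance between 2 libraries, the sum of the absolute differences of their shares was divided by 2, which is the percentage of reads that would have to change segment. For Trbv the median distance was 6.58% over the 16 pairs of a KO and a WT library, 5.83% over the 6 pairs within KO and 6.10% over the 6 pairs within WT. The Trbv median between the groups was thus the highest, but the ranges overlapped. They were 4.44 to 8.46% between the groups, 4.32 to 7.23% within KO and 4.03 to 7.81% within WT. For Trav it was 26.8% between the groups, 25.0% within KO and 35.7% within WT, and over members outside the run 17.8% between the groups, 22.4% within KO and 16.0% within WT. The distances share libraries and are given as a description.

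The other genes of receptor assembly were described by lists. In the T cell receptor complex (9 tested), 0 rose and 2 fell, where 2.41% of all tested genes fell: Trbc2, and Cd4, the coreceptor (log2 fold change -0.19, edgeR adjusted p = 0.0242). The CD3 chains Cd3d, Cd3e and Cd3g and the zeta chain Cd247 had log2 fold changes between -0.04 and 0.08. In the recombination and end-joining list (14 tested), 0 rose and 2 fell against the same background, and Rag1 and Rag2, which encode the recombinase, had 0 reads. Dntt, the terminal transferase that adds untemplated bases at the joints, fell to 4.79 ± 1.09 CPM in the KO libraries, against 14.2 ± 2.24 CPM in the WT libraries (SD, n = 4 each; log2 fold change -1.55, edgeR adjusted p = 7.78e-07). Xrcc4, a ligase partner in end joining, fell to 11.6 ± 2.01 CPM in the KO libraries, against 17.8 ± 3.68 CPM in the WT libraries (log2 fold change -0.58, edgeR adjusted p = 0.0208).

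Joining and diversity segments (49 tested of 76) had a median log2 fold change of -0.15, and 1 passed, beside 6.39% of all tested genes. Trbj1-5, a joining segment of the first beta cluster, fell to 9.23 ± 1.84 CPM in the KO libraries, against 13.5 ± 1.38 CPM in the WT libraries (SD, n = 4 each; log2 fold change -0.53, edgeR adjusted p = 0.0404). Joining segments of the first cluster made up 53.1 ± 1.12% of beta joining reads in KO and 55.3 ± 2.0% in WT (exact permutation p = 0.171). Traj1 to Traj30, which lie nearer to the constant gene, made up 75.0 ± 1.75% of alpha joining reads in KO and 75.3 ± 3.42% in WT (exact permutation p = 0.943).

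Markers of other cell types were low or unequal between the groups. Over all tested genes 3.98% passed as higher and 2.41% as lower in KO. Of the gamma and delta receptor genes 3 of 24 were tested and 1 passed. Trdc, the delta constant gene, which lies within the alpha locus, rose to 15.1 ± 3.41 CPM in the KO libraries, against 9.95 ± 2.46 CPM in the WT libraries (log2 fold change 0.60, edgeR adjusted p = 0.0426). The 6 markers of gamma delta T cells summed to 11.8 to 20.3 CPM in KO and 8.40 to 14.1 CPM in WT. Those of innate-like T cells summed to 4.15 to 5.51 CPM in KO and 3.47 to 6.20 CPM in WT, with 0 of 2 tested passing. Trav11, in that list, had 0 reads but also 0.0% unique windows, so its count does not measure these cells. The 4 regulatory T cell markers summed to 78.5 to 148.5 CPM in KO and 27.2 to 36.6 CPM in WT, where 1 of 4 passed, the lineage factor Foxp3 (log2 fold change 3.45, edgeR adjusted p = 0.000881). The 6 B cell markers summed to 359.4 to 415.1 CPM in KO and 445.9 to 485.2 CPM in WT, without overlap. In that list 1 of 4 tested fell, Ighm (-0.27, edgeR adjusted p = 0.00132). Of the other lists 0 of 2 tested myeloid, 0 of 1 tested CD8 T cell and 0 of 0 tested NK cell markers passed. The part of these cells in the usage or level of the V segments was not tested.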

How the data were processed

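Per the labels' protocols, poly(A) RNA was made into libraries with the TruSeq RNA kit v2 and sequenced as single reads of 75 bases. The submitters' processing notes name CASAVA 1.8.2, FastQC, R 3.5.3, DESeq2 1.22.2 and mm10. Not given in the sources used here are the aligner, the counter, the annotation and the use of strand. The authors deposited a table of whole-number read counts (53465 genes) and a normalized signal table (16418 genes). The deposited normalized signal equals the count divided by 1 size factor per library, and holds the genes with at least 10 reads over the 8 libraries. Gene positions, types and sequences came from GENCODE M21, which matched 99.6% of IDs and all 99 V segments.

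Counts were tested KO against WT with edgeR 4.0.16 in R 4.3.3 (robust quasi-likelihood test, TMM, filterByExpr, Benjamini-Hochberg adjustment over 11772 genes, threshold 0.05), with no covariate. Trav or Trbv reads were divided by their locus total per library to give shares, and single values were compared by exact 2-sided permutation over the 70 relabellings. Steps were tested on simulated data. Named are V segments that passed, the 10 most used per locus, the 5 with the largest share ratios among those with a mean share of at least 1%, those of that size without overlap, the constant genes, and list members that passed. Trav6d-3, Trbv21, Trav6-4, Trbv5, Trbv12-2, the members of the run and single markers were picked out after seeing their values. The members and lists were chosen with earlier results of these data known. Alternatives were DESeq2 1.42.0, limma 3.58.1 (voom with sample weights, and trend on log2 of the normalized values plus 1), other scalings and filters, other denominators, thinning to 501 Trav and 2813 Trbv reads, family sums, and leaving out each library. Scaling the stretches of the Trav locus apart, or using members outside the run, was added after seeing the data. One list member, and the results that need it, are not reported here.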

Additional observations from a re-analysis of the deposited data

Results flagged for a closer look

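In 92 groups of 4 libraries, the highest or lowest value was compared with its nearest neighbour, and 3 stood further from it than Dixon's 95% limit for 4 values. Chance alone gives about 1 in 20. The share of Trav14-3 in KO_2910 was 1.33% of Trav reads, while the other KO libraries had 3.15 to 3.49%. The share of Trav5-1, a segment at the upstream end of the locus and outside the run, was 6.19% in WT_2911, while the other WT libraries had 1.43 to 1.98%. The Trav total of WT_2911 lacks nearly all reads of the run. As a share of members outside the run, Trav5-1 was at 6.20% in WT_2911 and at 2.94 to 4.43% in the other WT libraries. Trbc2 in WT_2914 was at 703.1 CPM, while the other WT libraries had 643.4 to 650.2 CPM.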

How the results depend on the processing

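Of the values and counts of whole loci recomputed under alternatives, 68 kept their direction and their side of the threshold or stayed within 1.5 times. Of the rest, 18 counts moved further, 3 values changed direction and 1 crossed the threshold. Of the values of single segments 9 lost a pass and 1 gained one. The other 294 kept their side of the threshold or, for share ratios without a test, moved by less than the spread between replicates. Among these share ratios the log2 ratio nevertheless took another sign for 10 of 27 named segments in at least 1 set without 1 library. They were Trav14-1, Trav14n-3, Trav3-3, Trav5-1, Trbv13-1, Trbv13-2, Trbv13-3, Trbv19, Trbv2 and Trbv29. The count of V segments called was 4 without a count filter (Trav13-2, Trbv3, Trbv5 and Trbv16), 0 with DESeq2 (15 at an unadjusted p under 0.05) and 0 with limma-trend (24), where edgeR called 1, and leaving out 1 library gave 0 to 2. Trbv16 passed with RLE factors, library size alone, either filter, a non-robust fit and voom, but had an adjusted p of 0.0523 with limma-trend and 0.443 when scaled to Trbv reads. The level of Trbv1 passed in that scaling alone. Trav segments without overlap in share numbered 0 as family sums, 6 with the stretches scaled apart, and 1 to 11 when 1 library was left out (11 without WT_2915, 5 without KO_2907 or KO_2908, 2 without KO_2909), against 1. Trbv segments without overlap numbered 1 after thinning, and 2 to 3 when 1 library was left out, against 2. Among values of whole loci, directions turned for the effective number of Trav segments (-1.21) and the summed Trav level (-0.21) outside the run, and for Trbv reads per constant gene read (0.0065). Leaving out 1 library moved the log2 ratio of the summed Trbv level between -0.20 and -0.13 (exact permutation p between 0.0286 and 0.114) and that of the Trbv1 share between 0.32 and 0.40, with p = 0.0286, the smallest a design of 4 against 3 allows, each time. The causes were not tested. No paired analysis was possible because the groups share no replicate numbers. Trav shares rest on 501 to 2924 reads a library, which limits them more than Trbv shares.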

Other observations

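Outside the V segments, 9 genes had almost no reads in at least 1 library where the other libraries predicted 50 or more. Cpne4, on chromosome 9, had 290, 195, 0 and 0 reads in KO and 0, 0, 308 and 209 in WT. Col6a4, on the same chromosome, had 354, 221, 1 and 1 reads in KO and 7, 5, 575 and 284 in WT, and so was high and low in the same libraries as Cpne4. Gpr171, on chromosome 3, had 466, 0, 615 and 401 reads in KO and 233, 99, 470 and 512 in WT. The macrophage genes Chil3, Lpl, Mmp12 and Ccl6 had 0 reads in WT_2913 and WT_2914. Lyz2, a macrophage and granulocyte gene, had 38, 99, 113 and 34 reads in KO and 131, 0, 3 and 124 in WT. E430014B02Rik, on chromosome 17, had 10, 1, 15 and 12 reads in KO and 66, 49, 264 and 138 in WT, and was the single one of the 9 whose libraries separated by group. The causes were not tested.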
